A study of Homo sapiens with 12 samples.

Results

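Long noncoding RNAs are transcripts with no known protein product. They were read here on the larger of 2 array types, on which docetaxel-resistant sublines of the prostate cancer cell lines DU145 and 22Rv1 were each set against their parental cells. A probe set, the group of short probes that reads a transcript, was taken where it is annotated to a single gene whose symbol begins with LINC, ends in -AS or -IT and a digit, or is that of a microRNA or small nucleolar RNA host gene. MALAT1, NEAT1, H19, MEG3 and GAS5 were added by name. The members were also selected on the measured intensity: of 2281 probe sets with such names, 322 reached 100 on at least 1 of the 4 arrays, and these 322 probe sets of 256 genes are described, out of 54613 probe sets on the array. They comprise 164 antisense genes, 72 LINC genes, 9 microRNA host genes, 6 intronic genes, 4 small nucleolar RNA host genes and MALAT1. RefSeq classes 320 of the 322 as long noncoding RNA, and the other 2 (LINC01296 and TNRC6C-AS1) had no match there.

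The series holds 12 arrays in 4 groups of 3: DU145-DR, DU145, 22Rv1-DR and 22Rv1. DU145 derives from a brain metastasis and 22Rv1 from a xenograft tumour, and no genetic change was introduced into either. The -DR sublines were grown under docetaxel, a taxane that stabilises microtubules, while parental cells were grown in RPMI medium with serum alone, so resistance and exposure to the drug cannot be told apart. Replicate 3 of each group was run on the larger array (4 arrays) and replicates 1 and 2 on the smaller (8 arrays), which carries 28 of the 322 probe sets. The labels do not say whether replicates were separate cultures, so p-values measure the spread between these arrays, which may be technical. On the larger array there is 1 array per group, hence no test: a difference is given on the log2(intensity + 16) scale, and 1 on that scale is called 2-fold. The added 16 understates differences of dim probe sets.

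The identity of the cells was read from marker genes on the same 4 arrays. Of 4 leukocyte and 4 endothelial markers, none reached 100 in any group, and their summed intensities were 67.9 to 93.8 and 88.0 to 100.5. Of 5 epithelial genes, 4 fell in DU145-DR cells and 2 in 22Rv1-DR cells on the 8 arrays (limma, adjusted p under 0.05, a call made for 6.22% of all probe sets in DU145-DR and for 3.21% in 22Rv1-DR). CDH1, the gene of E-cadherin, was among those that fell in each line. Of 6 prostate luminal markers, 2 reached 100 in each DU145 group and 5 in each 22Rv1 group on the larger array. In 22Rv1-DR against 22Rv1 there, KLK2 differed by 1.28, HOXB13 by -1.64 and TMPRSS2 by -1.02. By limma on the 8 arrays 0 of the 6 passed in either line. With the replicate number as a block 5 passed in 22Rv1-DR, beside 15.8% of all probe sets, and 0 in DU145-DR. Of 6 fibroblast markers, 0 passed in DU145-DR, and LUM, a collagen-binding proteoglycan, and DCN rose in 22Rv1-DR. LUM gave 2778 and 3984 in 22Rv1-DR cells against 28.8 and 41.9 in 22Rv1 cells (6.04 ± 0.21 SE, limma adjusted p = 0.000113), and on the larger array 1698 in 22Rv1-DR cells and 729 in 22Rv1 cells. DCN rose by 0.93 ± 0.15 SE (adjusted p = 0.0202), and 2 of its probe sets were lower on the larger array (-0.68 and -0.89). Summed over the 6 fibroblast markers, the larger array read 1955 in 22Rv1-DR cells and 1129 in 22Rv1 cells, and 182 in DU145-DR cells and 297 in DU145 cells. The part of these markers in the 22Rv1 values that follow was not tested.

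Antisense genes are transcribed from the strand opposite a protein-coding gene, and many start within the same promoter region and run away from it. LINC genes lie between or apart from coding genes. A host gene carries microRNAs or small nucleolar RNAs in its transcript, mostly in introns, and the small RNAs are cut out of it, so that the level of a host transcript is not the level of its mature microRNA. MALAT1 is an abundant RNA of nuclear speckles, and NEAT1 is the scaffold of paraspeckles.

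Among the host genes, 4 carry microRNAs whose families are well known in epithelial cancers. Their mature strands are given 5′ to 3′ from RefSeq (GRCh38.p14), with the seed, bases 2 to 8, in capitals, because the seed sets which messages a microRNA can pair with. MIR100HG on chromosome 11 hosts the first 3, MIR200CHG on chromosome 12 the next 2, MIR31HG on chromosome 9 the next, and MIR181A2HG on chromosome 9 the last 2.
hsa-miR-100-5p: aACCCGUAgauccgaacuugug
hsa-let-7a-5p: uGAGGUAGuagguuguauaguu
hsa-miR-125b-5p: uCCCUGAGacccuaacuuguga
hsa-miR-200c-3p: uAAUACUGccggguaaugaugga
hsa-miR-141-3p: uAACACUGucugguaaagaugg
hsa-miR-31-5p: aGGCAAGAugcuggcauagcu
hsa-miR-181a-5p: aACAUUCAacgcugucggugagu
hsa-miR-181b-5p: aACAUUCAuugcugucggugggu
Of these 8 microRNAs, miR-181a and miR-181b share a seed, and those of miR-200c and miR-141 differ at a single base.

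MIR100HG was the host gene that stood furthest apart. Its intensity was 1060.1 in DU145-DR cells and 62.2 in DU145 cells (log2 difference 3.78, 17.0-fold on the intensity scale), while 22Rv1-DR and 22Rv1 cells read 9.51 and 9.85. It was thus bright in DU145-DR only, and at the dim end of the array in both 22Rv1 groups. MIR200CHG, host of microRNAs that hold back the mesenchymal regulator ZEB1, read 27.3 in DU145-DR cells and 73.5 in DU145 cells (-1.05), and 78.2 in 22Rv1-DR cells and 115 in 22Rv1 cells (-0.48). MIR31HG read 61.4 in DU145-DR cells and 122 in DU145 cells (-0.83), and 28.2 and 28.8 in 22Rv1-DR and 22Rv1 cells. The host of the miR-181 pair, MIR181A2HG, read 329 in DU145-DR cells and 584 in DU145 cells (-0.80), and 49.5 in 22Rv1-DR cells and 88.0 in 22Rv1 cells (-0.67), lower in each resistant subline by less than 2-fold.

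The other 5 microRNA host genes were within 2-fold in both lines. MIR550A3HG read 666 in DU145-DR cells and 372 in DU145 cells (0.81), and 236 in 22Rv1-DR cells and 431 in 22Rv1 cells (-0.83), so its differences were of nearly the same size in opposite directions. MIR570HG did likewise at lower intensity, by 0.75 in DU145-DR and -0.48 in 22Rv1-DR. MIRLET7BHG, host of let-7 microRNAs, differed by -0.28 and -0.23, MIR1915HG by -0.20 and 0.33 and MIR3667HG by 0.22 and -0.18 in DU145-DR and 22Rv1-DR.

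The small nucleolar RNA host genes were read by 6 probe sets. Small nucleolar RNAs guide the chemical modification of ribosomal RNA, and many host genes begin with a run of pyrimidines, the 5′ terminal oligopyrimidine tract of growth-controlled transcripts. The 40 bases around the annotated start (20 before it, 20 from it on) of the 4 genes are shown from RefSeq (GRCh38.p14), with capitals for a C followed by at least 4 C or T whose first base lies within 10 bases of the start. Such a run was found in all 4, in 40.7% of the 199 long noncoding RNA promoters matched and in 31.3% of 27305 promoters. A match is a description of these letters and not evidence of a tract in use.
SNHG17: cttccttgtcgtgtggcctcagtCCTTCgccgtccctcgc
SNHG19: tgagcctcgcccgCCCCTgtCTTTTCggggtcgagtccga
SNHG32: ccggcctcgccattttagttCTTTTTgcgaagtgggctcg
SNHG33: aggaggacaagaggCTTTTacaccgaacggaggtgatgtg

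SNHG17 was higher in DU145-DR cells by both of its probe sets. The brighter read 1965 in DU145-DR cells and 699 in DU145 cells (1.47), and 787 in 22Rv1-DR cells and 564 in 22Rv1 cells (0.47). The other read 1176 in DU145-DR cells and 495 in DU145 cells (1.22), and 478 in 22Rv1-DR cells and 322 in 22Rv1 cells (0.55). That second probe set is also on the smaller array, where it gave 1652 and 1168 in DU145-DR cells against 1105 and 1252 in DU145 cells. These values overlap, and the difference there did not pass (0.24, limma adjusted p = 0.728).

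SNHG19 differed in opposite directions in the lines. It read 4640.3 in DU145-DR cells and 2288 in DU145 cells (1.01), and 760.1 in 22Rv1-DR cells and 1734 in 22Rv1 cells (-1.17). SNHG33 was higher in both resistant sublines by both of its probe sets, by 0.76 and 1.11 in DU145-DR and by 0.71 and 0.60 in 22Rv1-DR. SNHG32 was within 2-fold on the larger array, at 6517 in DU145-DR cells and 6562 in DU145 cells (-0.01) and 2957 in 22Rv1-DR cells and 3666 in 22Rv1 cells (-0.31). On the smaller array it had the larger values in 22Rv1-DR cells, 5634 and 5293 against 3191 and 2916 in 22Rv1 cells, which did not pass (0.84 ± 0.21 SE, limma adjusted p = 0.111). The larger array thus gave the opposite sign for this gene in 22Rv1.

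MALAT1 was read by 10 probe sets that did not give 1 direction. Their differences ranged between -0.34 and 1.40 in DU145-DR and between -1.57 and 0.79 in 22Rv1-DR. The brightest read 8023 in DU145-DR cells and 5673 in DU145 cells (0.50), and 4837 in 22Rv1-DR cells and 5595 in 22Rv1 cells (-0.21). The probe set with the lowest difference in 22Rv1-DR read 1176 in 22Rv1-DR cells and 3517 in 22Rv1 cells, whereas the one with the highest difference in DU145-DR read 5367 in DU145-DR cells and 2019.8 in DU145 cells. No direction for the whole RNA is given from these. NEAT1 and H19 are read only by probe sets annotated jointly to further small RNAs and are no members, 10 MEG3 probe sets peaked at 79.3, and the single-gene GAS5 probe set at 86.2.

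Over all 322 probe sets the lines differed in how evenly the long noncoding RNAs moved. In DU145-DR cells 34 (10.6%) were at least 2-fold higher and 46 (14.3%) at least 2-fold lower than in DU145 cells, beside 12.1% and 11.1% of the 18973 single-gene probe sets that reached 100. The median difference was -0.05, beside 0.09 over those probe sets. It turned to 0.01 when the arrays were shifted to 1 median and was -0.12 after quantile normalization, so no direction against 0 is given for DU145-DR. A shift moves all probe sets alike and leaves the distance between the 2 medians as it was. Lower values numbered 180 and higher ones 141 in DU145-DR, where over all 18973 probe sets 8486 were lower and 10409 higher. In 22Rv1-DR cells 8 (2.48%) were at least 2-fold higher and 36 (11.2%) at least 2-fold lower, beside 3.35% and 4.9% of all, and the median difference was -0.22, beside 0.01. Lower values outnumbered higher ones by 217 to 102 in 22Rv1-DR, where over all 18973 probe sets 9193 were lower and 9580 higher.

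**Figure D1:**
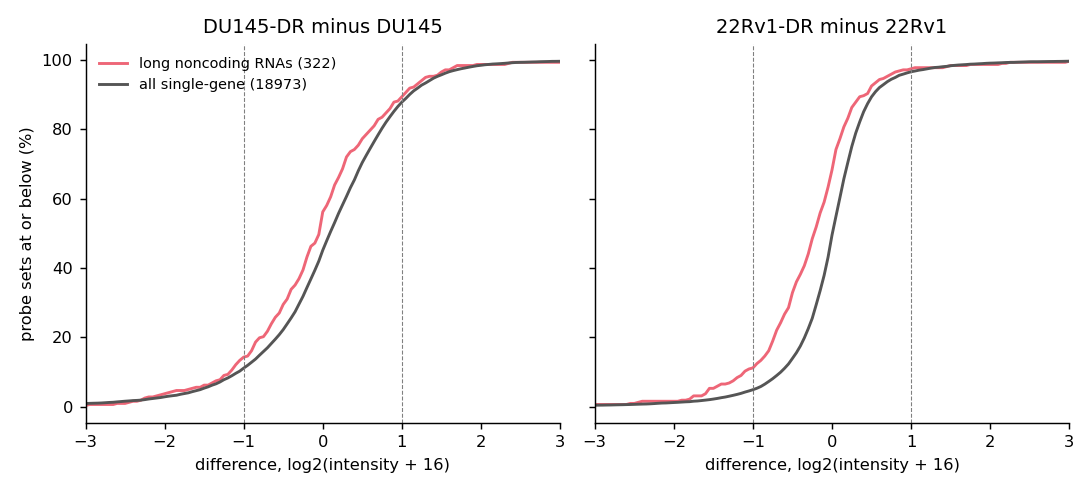
Cumulative share of probe sets (percent) against the log2 difference of resistant from parental cells on the larger array, for 322 long noncoding RNA probe sets and for the 18973 single-gene probe sets that reached 100, in DU145 and in 22Rv1. In 22Rv1 the long noncoding RNA curve lies to the left of the curve for all probe sets, with medians of -0.22 and 0.01.

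The same was read among dim probe sets alone. Of the probe sets whose highest intensity was 100 to 500, 249 were long noncoding RNAs, of which 6 (2.41%) were higher and 28 (11.2%) lower by 2-fold in 22Rv1-DR cells, beside 3.21% and 4.66% of 9840 probe sets. In DU145-DR cells the shares were 8.84% higher and 15.3% lower, beside 11.5% and 9.45%. A probe set that reached 100 in 1 group only was taken because it was high there, in members and in all probe sets alike. These counts come from 1 array per group and describe those arrays.

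With 1 probe set per gene, the one with the highest mean, 24 of 256 genes were at least 2-fold higher and 38 lower in DU145-DR, where the shares over 11250 genes were 11.1% and 11.7%. In 22Rv1-DR 8 were higher and 30 lower, where those shares were 3.61% and 5.2%. Of 164 antisense genes, 24 were lower and 13 higher in DU145-DR, and 22 lower and 4 higher in 22Rv1-DR, with medians of -0.06 and -0.28. Of 72 LINC genes, 13 were lower and 8 higher in DU145-DR, and 7 lower and 4 higher in 22Rv1-DR. The 6 intronic genes were all within 2-fold in both lines. Of 42 genes read by several member probe sets, 12 had probe sets of differing sign in each line, and none had probe sets past 2-fold in opposite directions. For 9 of the 42 in DU145-DR and 1 in 22Rv1-DR, a probe set was past 2-fold while the one that represents the gene was not. The counts per gene thus depend on the probe set taken.

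**Figure D2:**
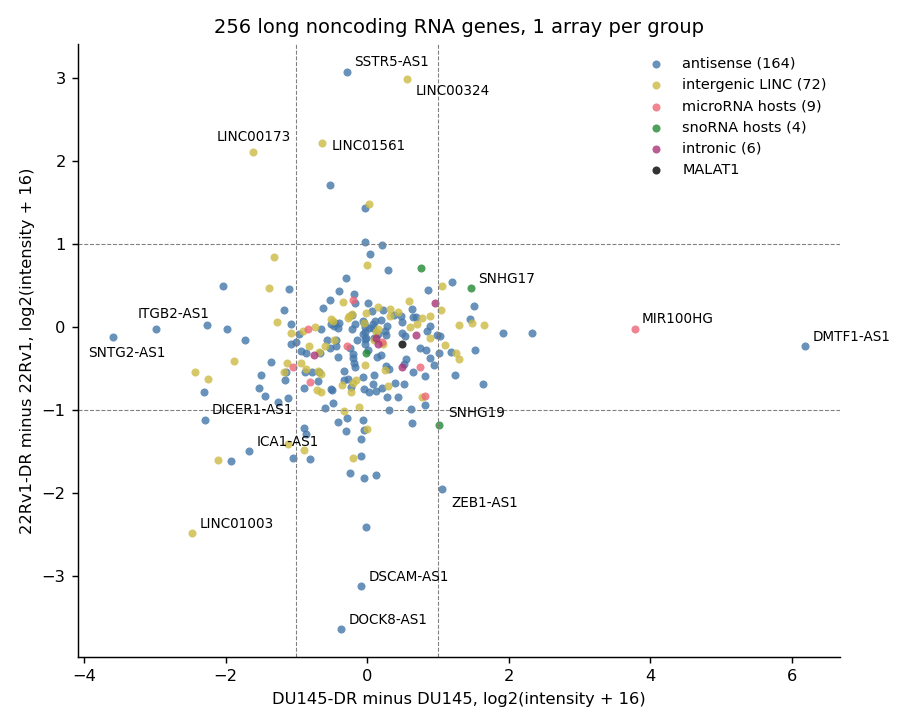
Log2 difference of 22Rv1-DR from 22Rv1 (vertical axis) against that of DU145-DR from DU145 (horizontal axis) for 256 long noncoding RNA genes on the larger array, 1 point per gene, coloured by class, with dashed lines at 2-fold. DMTF1-AS1 (6.19) and MIR100HG (3.78) lie far to the right, and 7 genes lie in the lower left corner past 2-fold in both lines.

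In DU145-DR cells the largest difference was that of DMTF1-AS1, antisense to the gene of a cyclin D-binding transcription factor. It read 14165 in DU145-DR cells and 179 in DU145 cells (6.19, 79.3-fold on the intensity scale), against 72.0 and 87.4 in 22Rv1-DR and 22Rv1 cells. After MIR100HG followed ZNF674-AS1, at 177 in DU145-DR cells and 22.3 in DU145 cells (2.33), and DLGAP1-AS6, at 232 in DU145-DR cells and 49.9 in DU145 cells (1.91). At 1 probe set per gene DMTF1-AS1 and MIR100HG stood clear of the rest, whose differences were 2.33 or less. LINC00997 differed by 2.35 by a probe set that does not represent it, and by 0.70 by the one that does. LINC01963 read 367 in DU145-DR cells and 105 in DU145 cells (1.66). ZNF407-AS1 (1.64), THUMPD3-AS1 (1.52), ZNF790-AS1 (1.51), LINC01116 (1.49) and SNHG17 (1.47) completed the 10.

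On the low side in DU145-DR cells, SNTG2-AS1 read 16.2 in DU145-DR cells and 372 in DU145 cells (-3.59). ITGB2-AS1, antisense to the gene of a leukocyte integrin chain, read 21.1 in DU145-DR cells and 278 in DU145 cells (-2.99). LINC01003 read 34.8 in DU145-DR cells and 265 in DU145 cells (-2.47). All 3 read below the median of the DU145-DR array (37.5). LINC00667 (-2.43), DHRS4-AS1 (-2.30), DICER1-AS1 (-2.29), PSMB8-AS1 (-2.27), LINC00526 (-2.25), LINC00899 (-2.11) and MBNL1-AS1 (-2.03) followed. Outside this ranking of representative probe sets, PGM5-AS1 differed by -2.62 by another probe set, and by -0.25 by the one that represents it. DHRS4-AS1 was within 2-fold in the other line, at 214 in 22Rv1-DR cells and 380.0 in 22Rv1 cells. OIP5-AS1, the human counterpart of the zebrafish cyrano RNA, outside the 10 and chosen after its values were seen, read 1176 in DU145-DR cells and 3929 in DU145 cells (-1.73), and 3148 and 3517 in 22Rv1-DR and 22Rv1 cells. Its 3 probe sets ranged from -1.73 to 0.06 in DU145-DR and so parted in sign.

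In 22Rv1-DR cells the largest higher value was that of SSTR5-AS1, at 288 in 22Rv1-DR cells and 20.1 in 22Rv1 cells (3.07). LINC00324 read 1113 in 22Rv1-DR cells and 126 in 22Rv1 cells (2.99), and 97.7 and 61.0 in DU145-DR and DU145 cells. LINC01561 read 309 in 22Rv1-DR cells and 53.8 in 22Rv1 cells (2.22). Of these 3, LINC00324 alone also reached 100 in parental 22Rv1 cells. LINC00173 (2.10), AFAP1-AS1 (1.71), LINC01029 (1.48), DIP2C-AS1 (1.43) and KCNMB2-AS1 (1.02) were the remaining genes past 2-fold, and IQCH-AS1 (0.99) and ZNF503-AS2 (0.87) completed the 10 just under it. AFAP1-AS1 read 258 in 22Rv1-DR cells and 67.6 in 22Rv1 cells, and LINC01029 1261 and 443 in the same order.

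Among the low values in 22Rv1-DR cells, DOCK8-AS1 read 32.0 in 22Rv1-DR cells and 580.0 in 22Rv1 cells (-3.63). DSCAM-AS1, an RNA known from luminal breast cancer, read 13.0 in 22Rv1-DR cells and 236 in 22Rv1 cells (-3.12), and 13.2 and 14.9 in DU145-DR and DU145 cells. TMEM132D-AS1 read 95.0 in 22Rv1-DR cells and 572 in 22Rv1 cells (-2.41). All 3 reached 100 in parental 22Rv1 cells only. LINC01003 (-2.48), ZEB1-AS1 (-1.95), SLC9A3-AS1 (-1.82), FGF14-AS2 (-1.78), RASSF8-AS1 (-1.76), NINJ2-AS1 (-1.62) and LINC00899 (-1.61) completed the 10. RASSF8-AS1 was at 8.11 in 22Rv1-DR cells and 65.8 in 22Rv1 cells, and owed its place to DU145-DR and DU145 cells, at 91.8 and 111.

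**Figure D3:**
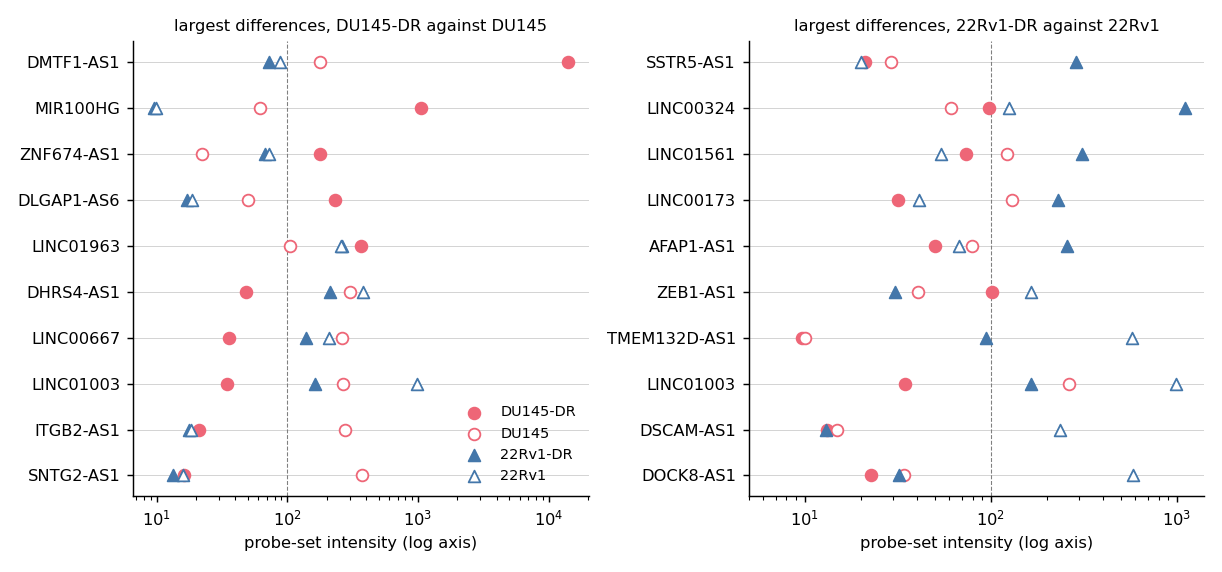
Probe-set intensity (log axis, 1 array per group) of the 5 genes with the largest higher and the 5 with the largest lower value in DU145-DR (left) and in 22Rv1-DR (right), with filled symbols for resistant and open symbols for parental cells and a dashed line at 100. DMTF1-AS1 at 14165 in DU145-DR cells is far above its other 3 values, and LINC01003 is lower in the resistant subline of each line.

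At least 2-fold lower values in both resistant sublines were found for 7 of 256 genes (2.73%, beside 1.28% of all genes), and at least 2-fold higher values in both for none (beside 0.604%). LINC01003 had the largest differences of the 7, -2.47 in DU145-DR and -2.48 in 22Rv1-DR, at 164 in 22Rv1-DR cells and 989 in 22Rv1 cells. DICER1-AS1, beside the gene of the enzyme that cuts microRNA precursors, read 52.0 in DU145-DR cells and 317 in DU145 cells, and 76.1 in 22Rv1-DR cells and 184 in 22Rv1 cells. ICA1-AS1 read 126 in DU145-DR cells and 437 in DU145 cells, and 56.5 in 22Rv1-DR cells and 189 in 22Rv1 cells. In each of these 3 genes both resistant values lay below both parental values. The other 4 were LINC00899 (-2.11 and -1.61), NINJ2-AS1 (-1.93 and -1.62), LINC00663 (-1.12 and -1.40) and PRKAG2-AS1 (-1.05 and -1.57).

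Past 2-fold in opposite directions were 3 genes (1.17%, beside 0.978% of all genes): SNHG19, ZEB1-AS1 and LINC00173. LINC00173 read 31.8 in DU145-DR cells and 131 in DU145 cells (-1.62), and 231 in 22Rv1-DR cells and 41.4 in 22Rv1 cells (2.10). It was high in parental DU145 and in resistant 22Rv1. With 1 array per group these opposite differences could not be tested.

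Of the 170 antisense and intronic genes, 154 have their sense gene on the larger array, and 118 of those sense genes reached 100. In DU145-DR 26 of these 118 long noncoding RNAs were past 2-fold, 10 higher and 16 lower. The sense partner was past 2-fold in the same direction for 7 of the 26 (3 higher, 4 lower), in the opposite direction for 1, and within 2-fold for 12 of the 16 lower ones. In 22Rv1-DR 15 were lower and 1 higher, and for 13 of the 15 the sense gene was within 2-fold. The medians over the 118 pairs were -0.05 for the long noncoding RNAs and 0.06 for the sense genes in DU145-DR, and -0.30 and 0.00 in 22Rv1-DR. Of all 118 sense genes, 94 in DU145-DR and 105 in 22Rv1-DR were within 2-fold, so the counts beside lower antisense RNAs are near that of the whole set.

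**Figure D4:**
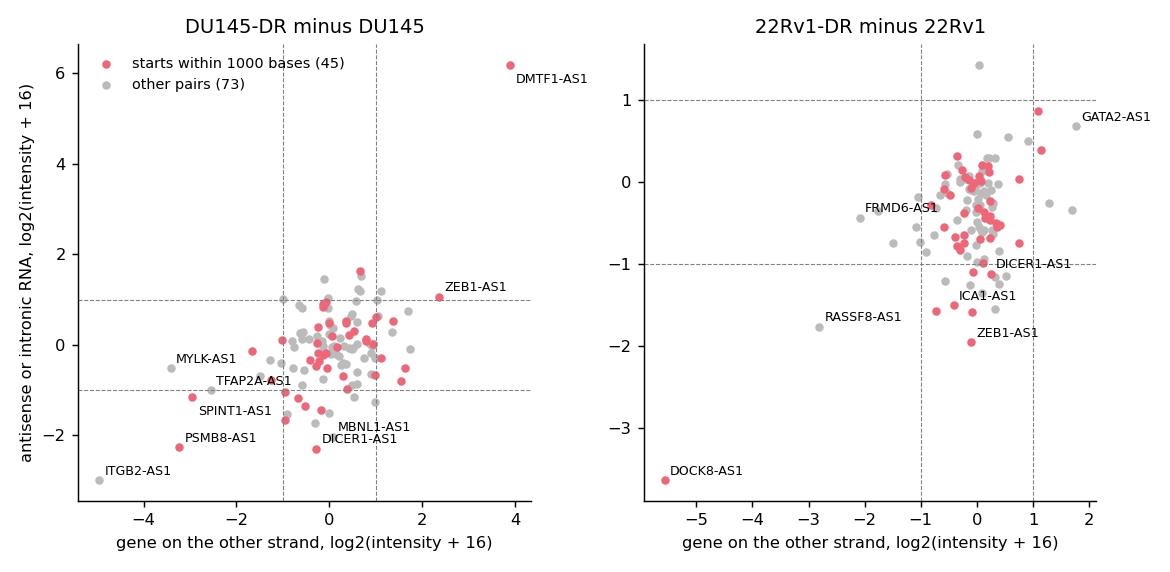
Log2 difference of the antisense or intronic RNA (vertical axis) against that of its sense gene (horizontal axis) on the larger array for 118 pairs whose sense gene reached 100, for DU145-DR from DU145 and for 22Rv1-DR from 22Rv1, with 45 pairs whose starts lie within 1000 bases in red and dashed lines at 2-fold. DMTF1-AS1 and DMTF1 lie high together in DU145 and DOCK8-AS1 and DOCK8 low together in 22Rv1, while most other pairs lie near the centre.

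The relation between partners was read over all pairs. Pearson's r was 0.531 in DU145 and 0.487 in 22Rv1 over 118 pairs, and 0.355 and 0.276 without the 2 most extreme pairs. Most extreme here means the largest difference of the long noncoding RNA, so pairs extreme only in the sense gene stayed in. For the 45 pairs that lie head to head with starts within 1000 bases r was 0.656 and 0.676 (0.528 and 0.310 without the 2 most extreme). For the 40 on opposite strands with starts further apart it was 0.228 and 0.201 (0.198 and 0.269 without the 2 most extreme). Spearman's rho was 0.501 and 0.215 for the head-to-head pairs and 0.221 and 0.143 for those further apart. Genes are not independent replicates and the points share 2 arrays, so these are descriptions. Whether each probe set reads only the strand of its named gene was not tested.

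The pairs with both partners lower included genes best known from immune cells. ITGB2 read 17.1 in DU145-DR cells and 1017 in DU145 cells (-4.96), lower together with ITGB2-AS1. PSMB8-AS1 read 16.2 in DU145-DR cells and 139 in DU145 cells, and its partner PSMB8, a subunit of the immunoproteasome, read 109 and 1160.1 (-3.23). On the 8 arrays PSMB8 gave 422 and 605 in DU145-DR cells against 2120 and 2684 in DU145 cells, a fall of 2.20 ± 0.22 SE (limma adjusted p = 0.00284). DOCK8, a signalling protein of blood cells, read 12 in 22Rv1-DR cells and 1305 in 22Rv1 cells (-5.56), lower together with DOCK8-AS1. The leukocyte markers did not reach 100 in any group, as given above. The other pairs lower together were SPINT1 (-2.95) with SPINT1-AS1 (-1.15) and TFAP2A (-2.55) with TFAP2A-AS1 (-1.0) in DU145-DR, and RASSF8 (-2.81) with RASSF8-AS1 in 22Rv1-DR.

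ZEB1-AS1 and ZEB1 were higher together in DU145-DR. ZEB1 encodes a repressor of E-cadherin that also represses the miR-200 genes. ZEB1-AS1 read 102 in DU145-DR cells and 40.5 in DU145 cells (1.06), and 30.7 in 22Rv1-DR cells and 164 in 22Rv1 cells (-1.95). ZEB1 read 1552 in DU145-DR cells and 290.0 in DU145 cells (2.36), and 10.6 and 12.7 in 22Rv1-DR and 22Rv1 cells. In 22Rv1 the antisense RNA was thus read where the sense gene was at the dim end. On the 8 arrays another ZEB1 probe set gave 1596 and 1075 in DU145-DR cells against 644 and 512 in DU145 cells, which did not pass (1.17 ± 0.39 SE, limma adjusted p = 0.157) but passed with the replicate number as a block (adjusted p = 0.00353).

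The promoters of MIR200CHG and ZEB1-AS1 are shown because ZEB1 binds E-boxes of the form CACCTG, and these are the long noncoding RNAs tied to the ZEB1 and miR-200 pair. Each window runs 250 bases before to 50 after the annotated start (RefSeq, GRCh38.p14), with CACCTG or its reverse complement CAGGTG in capitals. Such letters occur in 20.6% of 27305 promoters of this length and in 22.1% of the 199 long noncoding RNA promoters matched. MIR200CHG lies at chr12:6962995-6963294 on the plus strand and has 1 such run, 78 bases upstream of the start. ZEB1-AS1 lies at chr10:31319046-31319345 on the minus strand and has 2, at 159 and 41 bases upstream. No binding was measured here.
MIR200CHG: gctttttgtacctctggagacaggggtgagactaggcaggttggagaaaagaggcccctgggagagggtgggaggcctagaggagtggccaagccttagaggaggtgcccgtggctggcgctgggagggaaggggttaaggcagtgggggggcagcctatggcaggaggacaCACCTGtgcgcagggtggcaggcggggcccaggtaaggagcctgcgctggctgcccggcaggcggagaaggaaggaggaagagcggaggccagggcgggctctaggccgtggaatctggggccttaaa
ZEB1-AS1: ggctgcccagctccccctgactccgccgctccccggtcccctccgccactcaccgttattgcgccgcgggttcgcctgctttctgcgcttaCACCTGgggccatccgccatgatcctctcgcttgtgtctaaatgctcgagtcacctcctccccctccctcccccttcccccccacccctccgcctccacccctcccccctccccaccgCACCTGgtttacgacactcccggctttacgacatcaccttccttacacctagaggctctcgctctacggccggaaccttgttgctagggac

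Other pairs parted. DICER1 was within 2-fold in both lines (-0.28 in DU145-DR, 0.25 in 22Rv1-DR), at 792 in DU145-DR cells and 969 in DU145 cells, while DICER1-AS1 was lower. On the 8 arrays DICER1 did not pass in DU145-DR (-0.12, limma adjusted p = 0.926). MBNL1, a splicing factor gene, differed by 0.07 in DU145-DR where MBNL1-AS1 was at 81.6 in DU145-DR cells and 383 in DU145 cells. MYLK, the gene of myosin light chain kinase, was past 2-fold where MYLK-AS1 was not (-0.52): it read 102 in DU145-DR cells and 1243 in DU145 cells (-3.42), and another of its probe sets fell by 1.64 ± 0.19 SE on the 8 arrays (limma adjusted p = 0.00564). GATA2, a transcription factor gene, read 2048 in 22Rv1-DR cells and 592 in 22Rv1 cells (1.76), with GATA2-AS1 at 0.68. It rose on the 8 arrays (1.79 ± 0.25 SE, limma adjusted p = 0.0135). FRMD6 was lower in 22Rv1-DR (-2.09), with FRMD6-AS1 at -0.44.

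DMTF1-AS1 lies head to head with DMTF1 on chromosome 7, near the multidrug transporter gene ABCB1. On the larger array DMTF1 read 10369 in DU145-DR cells and 685 in DU145 cells (3.89), and ABCB1 differed by 8.64 in the same arrays. Of the other neighbours read, GRM3, ELAPOR2, TMEM243, TP53TG1, CROT, ABCB4 and DBF4 were also higher (2.77 to 5.04), while RUNDC3B (-1.04) and SLC25A40 (-1.31) were lower. DMTF1 gave 6427 and 1808 in DU145-DR cells against 1144 and 1618 in DU145 cells on the 8 arrays (1.32 ± 0.53 SE, limma adjusted p = 0.253). Replicate 2 of DU145-DR stood close to parental cells for DMTF1, with a difference of 0.16 within that pair against 2.47 within the first and 3.89 within the third. In that second pair GRM3, TMEM243, TP53TG1, CROT and ABCB4 differed by 0.03 to 0.64 and DBF4 by -0.23. None of these passed on the 8 arrays (limma adjusted p from 0.190 to 0.595). ABCB1 differed by 4.28 in the second pair and passed (5.15 ± 0.54 SE, limma adjusted p = 0.00354). In 22Rv1-DR on the larger array ABCB1 also differed by 7.36, where DMTF1-AS1 differed by -0.23. DMTF1-AS1 itself is not on the smaller array, so its difference rests on the third pair alone.

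The 28 probe sets on the smaller array could be tested with 2 arrays per group. In DU145-DR 2 of 28 passed, 1 higher and 1 lower (7 at an unadjusted p under 0.05), beside 6.22% of all 22215 probe sets (3.16% higher, 3.06% lower) and 10.6% of the 11111 single-gene ones that reached 100 on the larger array. In 22Rv1-DR none passed (8 at an unadjusted p under 0.05, lowest adjusted p = 0.103), beside 3.21% of all (1.69% higher, 1.52% lower) and 5.13% of those 11111. The change differed between the lines for 3 (5 at an unadjusted p under 0.05), beside 4.55% of all (2.41% with the 22Rv1 change above, 2.13% below) and 7.49% of those 11111. The share of all probe sets at an unadjusted p under 0.05 is not given here, so no excess is read from those unadjusted counts. With the replicate number as a block within each line the counts were 13, 5 and 8, but calls over all probe sets rose with them, to 23.8%, 15.8% and 21.9%. The medians of the 28 were -0.10 in DU145-DR and 0.01 in 22Rv1-DR, so the lower values seen in 22Rv1-DR on the larger array had no counterpart among these 28 on the smaller.

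Each of the 3 pairs of 22Rv1-DR and 22Rv1 arrays can be read for these 28 probe sets. Their medians were -0.02, -0.01 and -0.14 in pairs 1, 2 and 3, beside 0.04, 0.01 and 0.03 over the 11111 probe sets read on both arrays. At least 2-fold lower were 0, 0 and 1 of the 28, beside 2.72%, 3.04% and 4.74% of the 11111. In DU145-DR the medians were -0.09, -0.11 and 0.09, beside 0.00, 0.04 and 0.09. The sign was the same in all 3 pairs for 16 of 28 probe sets in DU145-DR and for 11 of 28 in 22Rv1-DR, beside 6727 and 6037 of the 11111.

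MCM3AP-AS1 was the long noncoding RNA that fell in DU145-DR. It gave 137 and 159.8 in DU145-DR cells against 434 and 653 in DU145 cells, and 244 and 186 in 22Rv1-DR cells against 139 and 126 in 22Rv1 cells. The groups do not overlap in either line, and the order is reversed. It fell by 1.74 ± 0.23 SE in DU145-DR (limma adjusted p = 0.00884), and did not pass in 22Rv1-DR (0.63 ± 0.23 SE, adjusted p = 0.287, adjusted p = 0.0333 with the block). The difference between the lines was 2.37 ± 0.32 SE (adjusted p = 0.0112). That call was lost without replicate 1 or 2 of 22Rv1 or replicate 1 of 22Rv1-DR (adjusted p from 0.0579 to 0.0677), while the fall in DU145-DR passed without any 1 array. The larger array gave 133 in DU145-DR cells and 407 in DU145 cells (-1.50), and 256 in 22Rv1-DR cells and 391 in 22Rv1 cells (-0.58), which in 22Rv1 is the opposite sign.

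LINC01963 rose in DU145-DR. It gave 322 and 263 in DU145-DR cells against 136 and 81.0 in DU145 cells, and 258 and 229 in 22Rv1-DR cells against 309 and 324 in 22Rv1 cells. It was higher on both arrays of DU145-DR and lower on both of 22Rv1-DR. The change was 1.34 ± 0.23 SE in DU145-DR (limma adjusted p = 0.0214) and differed between the lines by -1.70 ± 0.33 SE (adjusted p = 0.0373). Both calls were lost without DU145 replicate 2, DU145-DR replicate 1 or any 1 array of 22Rv1-DR or 22Rv1 (adjusted p from 0.0516 to 0.0667 in DU145-DR and from 0.0578 to 0.158 between the lines). On the larger array it differed by 1.66 in DU145-DR and by 0.03 in 22Rv1-DR.

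LINC00667 passed only for the difference between the lines. Its probe set shared by the arrays gave 131 and 88.0 in DU145-DR cells against 229 and 212 in DU145 cells, and 147 and 199 in 22Rv1-DR cells against 81.0 and 97.0 in 22Rv1 cells. The groups do not overlap in either line and lie in opposite order. The differences were -0.94 ± 0.22 SE in DU145-DR (limma adjusted p = 0.058) and 0.84 ± 0.22 SE in 22Rv1-DR (adjusted p = 0.125), and the blocked values passed in both (adjusted p = 0.00837 and 0.015). The lines differed by 1.78 ± 0.31 SE (adjusted p = 0.0279), a call lost without any 1 array of DU145, 22Rv1-DR or 22Rv1 (adjusted p from 0.0651 to 0.134). On the larger array the same probe set gave -1.29 and 0.32, and the brighter LINC00667 probe set, at 35.8 in DU145-DR cells and 263 in DU145 cells, gave -2.43 and -0.54, so the probe sets parted in sign in 22Rv1.

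**Figure D5:**
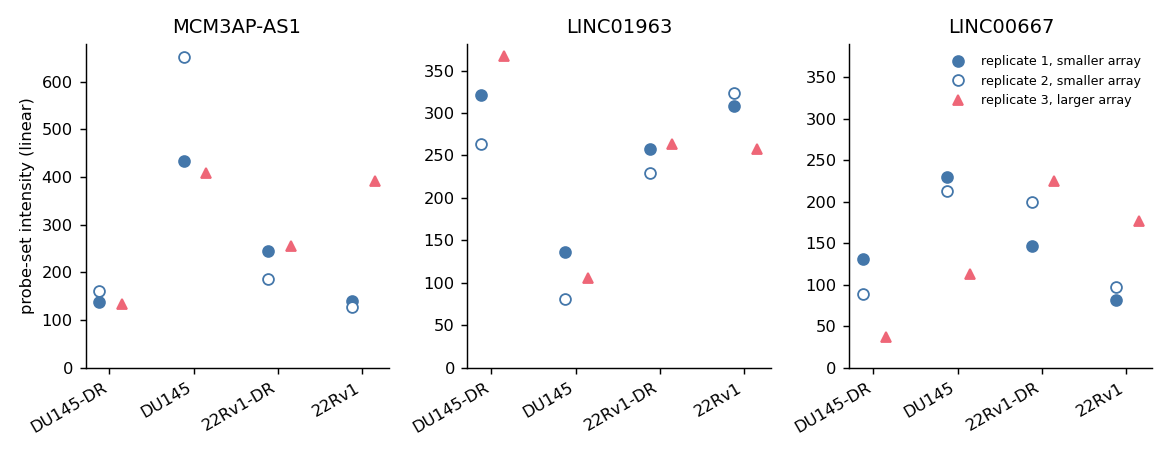
Probe-set intensity (linear axis) of MCM3AP-AS1, LINC01963 and LINC00667 (the probe set on both array types) in the 4 groups, with circles for replicates 1 and 2 on the smaller array and triangles for replicate 3 on the larger. The array types were normalized separately, so circles and triangles are compared only among themselves: MCM3AP-AS1 is lower in DU145-DR than in DU145 by both, while in 22Rv1-DR it is higher than in 22Rv1 by circles and lower by triangles.

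The parental lines also differed in their long noncoding RNAs, at shares not far above those of all genes. Between 22Rv1 and DU145 cells on the larger array, 48 of 256 genes were at least 2-fold higher in 22Rv1 and 49 at least 2-fold higher in DU145 (18.8% and 19.1%), beside 17.3% and 15.2% of all genes. Distributions of the 4 arrays were alike, with medians of 37.5 to 39.7. CCDC144NL-AS1 led in 22Rv1, at 1287 in 22Rv1 cells and 19.6 in DU145 cells (5.20), and it read 1235 in 22Rv1-DR cells. PAX8-AS1 read 798 in 22Rv1 cells and 19.3 in DU145 cells (4.53), and LINC01694 891 and 36.8 (4.10). TMEM132D-AS1 (4.50), ST8SIA6-AS1 (3.85), GAS6-AS1 (3.60), LINC01029 (3.59), DOCK8-AS1 (3.57), DPP10-AS1 (3.46) and LINC00992 (3.20) completed the 10.

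Higher in DU145 were SNTG2-AS1, at 15.9 in 22Rv1 cells and 372 in DU145 cells (-3.61), and LINC00648, at 39.4 in 22Rv1 cells and 613 in DU145 cells (-3.51). ITGB2-AS1 (-3.10), ARHGAP5-AS1 (-2.87), DLGAP1-AS1 (-2.71), LINC02762 (-2.71), FAM131B-AS2 (-2.69), KRT10-AS1 (-2.54), MIR181A2HG (-2.53) and DLGAP1-AS2 (-2.46) followed. In DU145-DR cells LINC00648 read 237. SNTG2-AS1 and ITGB2-AS1 are the same genes that had the lowest differences in DU145-DR, and DOCK8-AS1 and TMEM132D-AS1 were among the lowest in 22Rv1-DR, so these 4 RNAs were low in the resistant subline of the line whose parental cells read high. The comparisons share parental arrays, which ties a high parental value to a low difference.

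Genes outside the naming rule that bear on long noncoding RNAs were read from the 8 arrays. There 6.22% of all probe sets passed by limma in DU145-DR and 3.21% in 22Rv1-DR. Of 10 other long noncoding RNAs from lists chosen with earlier results of these data known, 1 fell in DU145-DR and 0 changed in 22Rv1-DR. That RNA was HCP5, from the HLA class I region, at 58.9 and 61.0 in DU145-DR cells against 307 and 498 in DU145 cells (-2.42 ± 0.23 SE, limma adjusted p = 0.00223). Of 10 paraspeckle and speckle proteins, which bind NEAT1 and MALAT1, of 5 small nucleolar RNP proteins and of 7 microRNA processing factors, 0 passed in either line by limma. With the replicate number as a block, 5, 2 and 1 of them passed in DU145-DR and 2, 0 and 0 in 22Rv1-DR. That blocked fit called 23.8% of all probe sets in DU145-DR and 15.8% in 22Rv1-DR. PSPC1, a paraspeckle protein, was higher in both (0.74 and 0.70, blocked limma adjusted p = 0.00542 and 0.00783). Their medians in DU145-DR and 22Rv1-DR were 0.34 and -0.16, -0.17 and 0.06, and -0.04 and 0.04, beside -0.02 and 0.00 over all probe sets. Of 8 nonsense-mediated decay factors, which degrade many spliced noncoding transcripts, RBM8A rose in DU145-DR (0.71 ± 0.15 SE, adjusted p = 0.0415) and in 22Rv1-DR SMG6 rose and SMG8 fell. SMG6, the endonuclease of that pathway, gave 393 and 317 in 22Rv1-DR cells against 57.3 and 54.2 in 22Rv1 cells (2.36 ± 0.20 SE, adjusted p = 0.00168). SMG8 changed by -0.82 ± 0.16 SE (adjusted p = 0.0413). The part of these genes in the long noncoding RNA levels was not tested.

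At the threshold of 100, the last probe sets taken were those of LINC03027, TBX2-AS1 and MIR3667HG, each with a highest value of 101. The first left out were TRIM52-AS1 (99.7), VAC14-AS1 (99.0) and PAPLN-AS1 (99.0). VAC14-AS1 read 15.2 in DU145-DR cells and 99.0 in DU145 cells, and TRIM52-AS1 40.5 in 22Rv1-DR cells and 99.7 in 22Rv1 cells, so differences past 2-fold also occur among those left out.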

How the data were processed

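Probe-set intensities on a linear scale were deposited by the authors, 1 table per array type. Per the labels' protocols, total RNA was labelled as biotin cRNA, and the submitters' processing notes name MAS5 and RMA. Neither a version nor which of them made which table is given in the labels. For this report log2(intensity + 16) was taken with no further normalization. The 4-array table was described with no test. The 8-array table (22215 probe sets) was fitted in R 4.3.3 with limma 3.58.1 (lmFit, eBayes without trend, 4 groups, no block). The fit had 4 residual and 2.91 prior degrees of freedom. Tests were two-sided, with Benjamini-Hochberg adjusted p under 0.05. The fit was also run on simulated arrays drawn without paired replicates and without unlike floors of the lines. That run does not check the fit under those conditions. The number of arrays limits the precision. Gene names come from the platform annotation, in which 41091 probe sets of the larger array have 1 symbol, 1801 several and 11721 none; 1 probe set of a Y-linked or X-inactivation gene was left out.

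Deviations of same-numbered arrays from their group means correlated within a line (0.747 in DU145, 0.787 in 22Rv1) and not across lines (0.0795 and 0.0736), so the numbers were taken to pair arrays within a line, from the data and not from the labels; a fit with that block (2 residual degrees of freedom) was an alternative. Intensities were not compared between lines on the 8 arrays, only the changes within lines. The reason was the 5th percentile of intensity, 35.8 to 38.6 in DU145 arrays and 11.5 to 12.3 in 22Rv1 arrays. The part of these unlike floors in the differences of change between the lines was not tested. A run of 101 consecutive probe sets of the 8-array data held the values of the next probe set in line: they correlated at 0.0681 with their own values in the 4-array table and at 0.957 with those of the next, against 0.972 for all other probe sets. None is a long noncoding RNA, and their values (ITGB2 and SPINT1 among them) are not used.

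Named genes are those called by limma, the 10 largest higher and lower in each line, those past 2-fold in both lines, the named, SNHG and microRNA host genes, the 10 largest between parental lines each way, the largest antisense pairs and the 3 probe sets on each side of the threshold; of pairs, a few more were named after their values were seen. A gene is represented by its probe set with the highest mean. Members and lists were chosen with earlier results of these data known.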

Additional observations from a re-analysis of the deposited data

Results flagged for a closer look

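The change in resistant cells differed between the lines for 3 probe sets tested by limma on the 8 arrays, given as the 22Rv1 change minus the DU145 change on the log2 scale: 2.37 for MCM3AP-AS1, 1.78 for LINC00667 and -1.70 for LINC01963. Groups of 2 arrays do not allow a check for outlying arrays.

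On the larger array 3 further genes were past 2-fold in opposite directions, with the 22Rv1 difference minus the DU145 difference at 3.72 for LINC00173, -2.19 for SNHG19 and -3.01 for ZEB1-AS1. With 1 array per group these differences were not tested.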

How the results depend on the processing

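On the 8 arrays, the long noncoding RNA probe sets called numbered 2 in DU145-DR, 0 in 22Rv1-DR and 3 for the difference between the lines. With a replicate block they numbered 13, 5 and 8, while calls over all 22215 probe sets rose to 5281, 3503 and 4854, against 1381, 712 and 1010 without it. With all 12 arrays and a replicate block they numbered 8, 1 and 5, and over all probe sets fitted 4307, 1380 and 2959. With only the 4 arrays compared, 96 of all 22215 probe sets were called in DU145-DR and 1452 in 22Rv1-DR. Of the long noncoding RNA probe sets, 0 were called in DU145-DR (limma; 7 of 28 at an unadjusted p under 0.05 in the fit of all 8) and 2 in 22Rv1-DR. Leaving out 1 array in turn gave 1 to 2, 0 to 1 and 0 to 3. In such a fit the lone array is assumed to vary like the other groups. MCM3AP-AS1 in DU145-DR was called under 18 of 19 alternatives, and not with only the 4 arrays compared (adjusted p = 0.103). LINC01963 in DU145-DR was called under 12 of 19, and the differences between lines under 15 (MCM3AP-AS1), 12 (LINC01963) and 12 (LINC00667) of 18, with no change of direction. Beyond the values printed beside its results, the block changed no call of these 3 genes. Leaving out the 101 displaced probe sets, chosen after seeing the data, left the 3 counts as they were.

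On the larger array, 80 probe sets were at least 2-fold apart in DU145-DR and 44 in 22Rv1-DR. A pseudocount of 64 gave 46 and 28, and an intensity minimum of 200 gave 27 of 184 in 22Rv1-DR. Under the settings tried, the lower share of those 2-fold apart was 51.9% to 61.3% in DU145-DR and 75.8% to 85.2% in 22Rv1-DR.

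The larger array holds 294 of the 322 probe sets alone, with 1 array per group, so most values here have no replicate, and a difference of a probe set near 10 to 20 in 1 group depends on the added constant. Resistance and drug exposure cannot be told apart. The 2 array types were not set on 1 scale, and the cause of the sign changes between them was not tested.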

Other observations

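NEAT1, the paraspeckle scaffold RNA, was read on the larger array by probe sets annotated jointly to NEAT1 and a microRNA. The brightest read 58.1 in 22Rv1-DR cells and 4240 in 22Rv1 cells (-5.84), and 2 others read 48.2 in 22Rv1-DR cells and 1911 in 22Rv1 cells (-4.91) and 16.9 in 22Rv1-DR cells and 365 in 22Rv1 cells (-3.53). On the 8 arrays another of these probe sets gave 15.6 and 16.8 in 22Rv1-DR cells against 35.0 and 41.6 in 22Rv1 cells (-0.75 ± 0.23 SE, limma adjusted p = 0.176, adjusted p = 0.00676 with the replicate number as a block). That probe set gave -0.59 on the larger array, where 6 of the 7 NEAT1 probe sets that reached 100 were lower in 22Rv1-DR, and the dimmest of them in DU145-DR cells was higher by 0.28, at 38.1 in 22Rv1-DR cells and 28.6 in 22Rv1 cells.

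In all, 39 probe sets of 23 genes fit the names but are annotated to several genes. In DU145-DR 9 were at least 2-fold higher and 6 at least 2-fold lower, beside 12.1% and 11.1% of all single-gene probe sets that reached 100. In 22Rv1-DR the counts were 1 and 5, beside 3.35% and 4.9%. Probe sets of the same gene are counted apart here. Those lower in DU145-DR all read MIR503HG or NEAT1, and those lower in 22Rv1-DR all read NEAT1 or MIR4453HG. MIR23AHG read 1479 in DU145-DR cells and 343 in DU145 cells (2.06), SNHG15 2048 in DU145-DR cells and 671 in DU145 cells (1.59), and SNHG12 2487 in DU145-DR cells and 929 in DU145 cells (1.40). A second MIR23AHG probe set differed by 0.16, the SNHG16 probe sets by -0.89 and 0.97, SNHG29 by -0.81 and SNHG10 by -0.56. SNHG9 read 202 in DU145-DR cells and 41.9 in DU145 cells (1.91). MIR503HG read 97.0 in DU145-DR cells and 404.5 in DU145 cells (-1.90). MIR22HG gave 3259 and 1176 in DU145-DR cells against 729 and 809 in DU145 cells on the 8 arrays (1.33 ± 0.43 SE, limma adjusted p = 0.145), and SNHG20 differed by 0.87 ± 0.30 SE there (adjusted p = 0.169, adjusted p = 0.0495 with the block). The 4 GAS5 probe sets gave -0.93, -0.87, 0.40 and 0.79 in DU145-DR and allow no direction.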
